A study of Mus musculus with 2 samples.

Results

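The barcodes described here are stromal barcodes of the KPCA.FSTKO tumor library that held Postn or Sparcl1 transcripts and few contractile or mesothelial ones. They were chosen on their own counts. A barcode was called stromal when Col1a1, Col1a2, Col3a1 and Dcn together made up at least 0.3% of its unique molecular identifiers (UMIs, counted transcripts), when it held 0 Ptprc UMIs, and when Krt7, Krt8 and Krt18 together stayed under 0.1%. Members were stromal barcodes with at least 5 UMIs of Postn and Sparcl1 together, with Acta2 and Tagln together under 0.1% of UMIs, and with under 3 UMIs over 8 mesothelial genes. The rule gave 99 members among 702 stromal barcodes, out of 6777 barcodes past the filters of the study and 7582 deposited for this library. The whole series holds 11826 deposited barcodes in 2 libraries.

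The study asked how follistatin (FST) and its relative follistatin-like 3 (FSTL3), secreted proteins that bind activin, act on the microenvironment of ovarian tumors. Female C57BL/6J mice of 12 to 16 weeks were grafted intraperitoneally with KPCA cells, a syngeneic line of fallopian tube epithelium whose engineered changes include Trp53, Ccne1 and Akt2. In KPCA.FSTKO the grafted cells lack Fst, and KPCA.FSTKO_hFSTL3 is 1 stable clone of those cells that also carries a plasmid for human FSTL3, so that both groups share the Fst deletion. The host's own Fst was intact, and omental tumors were taken at day 10, 4 of them pooled into 1 library per genotype. With 1 library per genotype there was no replicate and no test. All intervals below are exact 95% intervals that cover counting error only (Poisson for levels, Clopper-Pearson for shares and, for ratios, conditional binomial).

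Fibroblasts make and remodel the extracellular matrix. In tumors they secrete collagens, matricellular proteins such as periostin (Postn), proteoglycans such as decorin (Dcn), and growth factors and chemokines that act on cancer and immune cells. Sparcl1, also called hevin, is a secreted relative of SPARC, Serpine2 inhibits serine proteases, Lama2 encodes a laminin chain of basement membranes, and Ebf1 encodes a transcription factor found in fibroblasts, pericytes, adipocyte precursors and B cells. Activin A, encoded by Inhba, is a ligand of the TGF-beta family, and FST and FSTL3 keep it from its receptors.

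The genes that name the group lie on separate chromosomes, apart from Lama2 and Dcn, which are both on chromosome 10 (GRCm38, whole-gene spans, 1-based). Postn spans chr3:54361109-54391037 on the plus strand and Sparcl1 chr5:104079111-104113733 on the minus strand. Serpine2 spans chr1:79794197-79861180 on the minus strand, Lama2 chr10:26980036-27619758 on the minus strand, Ebf1 chr11:44617317-45008091 on the plus strand and Dcn chr10:97479609-97518143 on the plus strand.

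The members made up 14.1% of the stromal barcodes (interval 11.6 to 16.9) and 1.46% of all barcodes past the filters. The other 603 stromal barcodes were grouped by the contractile and mesothelial gates first, at any Postn and Sparcl1 count. Of them 95 missed only the contractile gate of this pair, 58 only the mesothelial gate and 7 both. The other 443 passed both gates with under 5 Postn and Sparcl1 UMIs. Of the 95, 34 had at least 5 Postn and Sparcl1 UMIs, so only these were kept out by the contractile gate alone. Depth was alike, with a median of 18049 UMIs in members (1380 to 71030) and 16660 in the other stromal barcodes. The edge at 5 UMIs was crowded, since 8 barcodes that passed every other gate had 4 UMIs and 10 had 5. At the other edges the highest contractile share of a member was 0.0986% and the lowest outside was 0.110%, 4 members held 2 mesothelial UMIs and 0 barcodes that passed the other gates held 3. The lowest matrix share of a member was 0.3002% and the highest keratin share 0.0894%. Libraries shared 12 barcode sequences, 0 of them members. Doublets were neither called nor removed.

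Postn and Sparcl1, which chose the members, were spread unevenly among them. A member held a median of 14 Postn UMIs (0 to 304) and a median of 4 Sparcl1 UMIs (0 to 93), and 91 of the 99 held any Postn while 69 held any Sparcl1. Summed over members, Postn stood at 1273 CPM (counts per 1000000 UMIs of the group, interval 1224 to 1325) and Sparcl1 at 789 (interval 750 to 829). The contractile barcodes, which the rule kept out, also carried both genes, at 457 CPM of Postn and 232 of Sparcl1. The barcodes that missed the mesothelial gate had 20.2 and 9.7 CPM. Those kept out only for low Postn and Sparcl1 had 14.97 and 6.1 by construction.

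Dcn, a gene of the stromal gate that is listed as a marker of this group, did not separate the members from the other stromal barcodes by its level. Its level was 1700 CPM in members and 1719 in the others, and it was highest in the barcodes of the mesothelial gate, at 4141 CPM. Among members the Dcn count ran from 0 to 214 UMIs with a median of 21, and 84 of 99 held at least 1.

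Serpine2, Lama2 and Ebf1, which the rule did not use, were found far more often in members than in the other stromal barcodes. Ebf1 had a UMI in 75.8% of members, in 13.9% of the other stromal barcodes and in 4.07% of the 1253 Ptprc-positive barcodes. That last group (median depth 12201 UMIs) served as the reference for free RNA, from which transcripts of its own cells were not told apart. Serpine2 was found in 57.6%, 17.4% and 3.59% of the same groups, and Lama2 in 48.5%, 9.45% and 1.20%. With each barcode thinned to 2000 UMIs, which left out 2 members and 79 of the others, the shares in members and others were 51.5% and 7.82% for Ebf1, 41.2% and 9.54% for Serpine2, and 34.0% and 3.44% for Lama2. So no marker outside the rule was carried by every member. Since the members were chosen on counts of the same barcodes, these contrasts are descriptions, with no test.

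**Figure D1:**
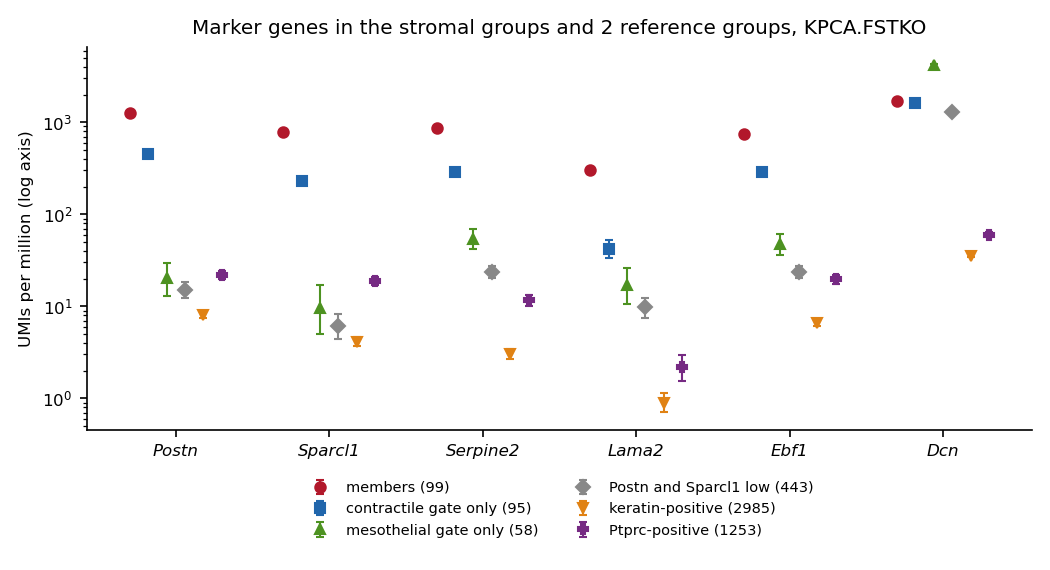
Level of the 6 genes that name the group in CPM (vertical, log axis), summed over barcodes of each group in KPCA.FSTKO, with exact Poisson 95% intervals. Members (99) stand above every other group for Postn, Sparcl1, Serpine2, Lama2 and Ebf1, the contractile group (95) comes next, and Dcn is highest in the mesothelial group (58, 4141 CPM).

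The label of fibroblast was then set against markers. All 99 members held at least 3 UMIs of the 14 general fibroblast markers. That count does not set members apart, since 585 of the 603 other stromal barcodes reached it. It was also reached by 2904 of the 2985 keratin-positive and 1189 of the 1253 Ptprc-positive barcodes. The markers summed to 14035 CPM in members, 10089 in the other stromal, 6613 in the keratin-positive and 6169 in the Ptprc-positive barcodes. T cell and NK markers summed to 1.55 CPM in members, with 9 of 10 genes at 0, and neutrophil markers to 1.55 CPM, with 4 of 6 at 0. Epcam, an epithelial adhesion gene looked up after other values were seen, had 0 UMIs in the members. The rule itself required 0 Ptprc UMIs and few keratin UMIs, so low leukocyte and epithelial values were in part set by the choice. In the other stromal barcodes, which passed the same gate, T cell and NK markers summed to 0.592 CPM. Neutrophil markers summed to 60.9 CPM there, with at least 3 such UMIs in 1 barcode. Other lists were less sparse. At least 3 UMIs of cancer cell genes were held by 59 of the 99 members (351 CPM, 4 of 14 genes at 0). Mesothelial genes outside the gate reached that count in 85 members (746 CPM, 2 of 12 at 0). Macrophage markers did so in 26 (92.7 CPM, 1 of 12 at 0). Among the 603 other stromal barcodes 344, 522 and 175 reached it for these lists, in the same order. The levels there were 595, 1250 and 120 CPM, so these counts are not particular to the members. Pericyte markers were not near 0, since 57 of the 99 members held at least 3 UMIs of that list, which also holds genes of fibroblasts. Of the 603 other stromal barcodes 281 did so. Single vascular genes were looked up afterwards. Rgs5, a pericyte gene, reached 3 UMIs in 5 members, and the endothelial genes Cdh5 and Pecam1 each did so in 2, with 86.5% of all Cdh5 UMIs in 1 barcode.

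Hmga2, a chromatin gene usually silent in adult tissue and looked up after other values were seen, went against the label in part of the members. At least 10 Hmga2 UMIs were found in 26 of the 99 members (26.3%, interval 17.9 to 36.1). This was close to the share over all stromal barcodes, 199 of 702 (28.3%, interval 25.0 to 31.8), so it is not particular to the members. The same count was reached in 68.2% of the 2985 keratin-positive barcodes (median depth 26815 UMIs), in 35.7% of the 443 barcodes low in Postn and Sparcl1, in 10.5% of the contractile and 6.90% of the mesothelial barcodes, and in 8.62% of the Ptprc-positive barcodes. Members were therefore described in 3 sets, drawn after the data were seen. The first holds the 26 Hmga2-high members, the second 46 members with under 10 Hmga2 UMIs and at least 3 Ebf1 UMIs (Ebf1-positive), and the third the remaining 27. Their median depths were 25388, 14768 and 20769 UMIs, so that a fixed number of UMIs is easier to reach in the first set. What kind of cell the Hmga2-high members were was not tested, and they are called by their genes only.

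Matrix genes of the stromal gate were scarcer in the Hmga2-high members, where they made up a median of 0.718% of UMIs, against 2.63% in Ebf1-positive and 2.72% in the remaining members. Postn was found in all 26 Hmga2-high members, with a median of 12.5 UMIs (5 to 118), but 17 of them held no Sparcl1 UMI. Only 4 of the 26 held a Serpine2 UMI and 6 a Lama2 UMI. Ebf1 was not absent from them: 22 of 26 held it, with a median of 7.5 UMIs and a level of 315 CPM. Spp1, which encodes the secreted phosphoprotein osteopontin, had a median of 667 UMIs in the Hmga2-high members, 9.5 in the Ebf1-positive and 12 in the remaining ones.

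The Ebf1-positive members carried most of the marker genes. Sparcl1 stood at 1895 CPM in them, 116 in Hmga2-high and 315 in the remaining members. Serpine2 stood at 1886, 278 and 346 CPM, and Lama2 at 709, 47.1 and 132 CPM in the same order. Postn was also highest there, at 2302 CPM against 733 and 709. Lpl, the lipoprotein lipase of fat tissue and its precursors, reached 1497 CPM in Ebf1-positive members, 118 in Hmga2-high and 567 in the remaining ones. Dcn was alike in the Ebf1-positive and remaining members, at 2326 and 2295 CPM, and 722 in Hmga2-high members.

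**Figure D2:**
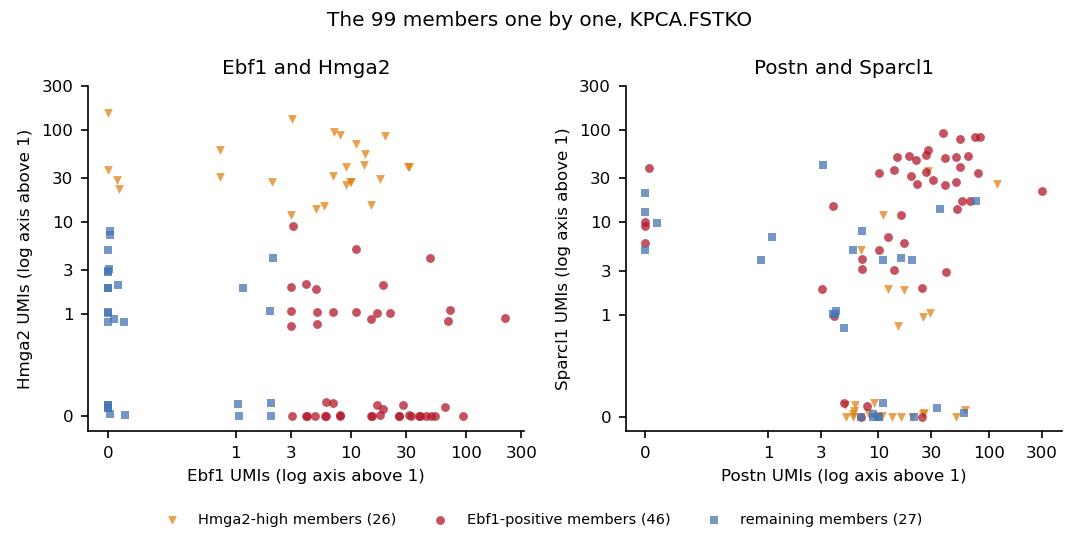
UMIs of Ebf1 (horizontal) and Hmga2 (vertical) at left and of Postn (horizontal) and Sparcl1 (vertical) at right in each of the 99 members, on axes that are logarithmic above 1, with small shifts so that points do not hide each other. Triangles are the 26 Hmga2-high members, most of them on the line of 0 Sparcl1 UMIs at right, circles the 46 Ebf1-positive and squares the 27 remaining members.

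Across all 99 members, the rank correlation of shares of UMIs was 0.81 between Serpine2 and Sparcl1, 0.66 between Lama2 and Sparcl1, 0.49 between Ebf1 and Sparcl1, and 0.34 between Postn and Sparcl1. After thinning (97 members) the values were 0.66, 0.61, 0.40 and 0.40. Between Ebf1 and Hmga2 it was -0.24, and -0.13 after thinning. All points come from 1 library, and the thresholds on Postn and Sparcl1 shape them, so these are descriptions.

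Over all genes, the members were compared with the other 603 stromal barcodes by the ratio of summed CPM. Genes with at least 100 UMIs over both groups were counted as higher or lower when the ratio was 2-fold or more. Of 9487 genes, 247 were higher in members (2.6%) and 352 lower (3.71%), with a median log2 ratio of -0.03. Lama2 led the genes that were higher (log2 ratio 4.20, interval 3.94 to 4.45, 300 against 16.4 CPM). Dpep1, a membrane dipeptidase, followed at 4.04, with 329 UMIs in 37 members, of which 1 barcode held 29.2%. Ccl11, the eosinophil chemokine eotaxin, came next at 4.02 (83.4 against 5.13 CPM), and Serpine2 at 3.49.

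The next genes were Srpx2 at 3.39, Ebf1 at 3.34, Fibin at 3.18, the semaphorin Sema7a at 3.05, the matrix protein Svep1 at 3.04, the proteoglycan Aspn at 2.99, Galnt17 at 2.98 and the sodium channel family gene Scn7a at 2.92. Srpx2 was the most evenly carried of them, with 126 UMIs in 48 members and at most 7 in any of them. None of these 12 genes was found in every member, and Ebf1 was the most frequent.

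Slpi, a secreted inhibitor of leukocyte proteases, was the lowest, with 4 UMIs in the members and 2878 in the other stromal barcodes (log2 ratio -7.10, interval -8.98 to -5.74). It was a gene of the mesothelial group, where its level was 1066 CPM, and of the group low in Postn and Sparcl1, at 220 CPM. Sez6l at -2.67, the phosphodiesterase Pde1c at -2.67, Clca3a1 at -2.56, the connexin Gjb5 at -2.28, the nuclear lamin Lmnb1 at -2.25 and Il1rapl1 at -2.20 were next. They were followed by the enolase Eno3 at -2.17, the histamine-forming enzyme Hdc at -2.11, the myosin light chain Myl9 at -2.10, transferrin (Trf) at -2.07 and Tmtc2 at -1.99. Myl9 belongs with the contractile genes that the rule used.

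Leaving out all 199 stromal barcodes with 10 or more Hmga2 UMIs, an alternative chosen after the data were seen, gave 254 higher (3.27%) and 313 lower (4.03%) of 7770 genes. Each of the 24 genes above kept its direction. Among the 12 that were higher, Lama2 was at 4.14, Dpep1 at 4.09, Ccl11 at 3.84, Serpine2 at 3.30 and Ebf1 at 3.22.

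**Figure D3:**
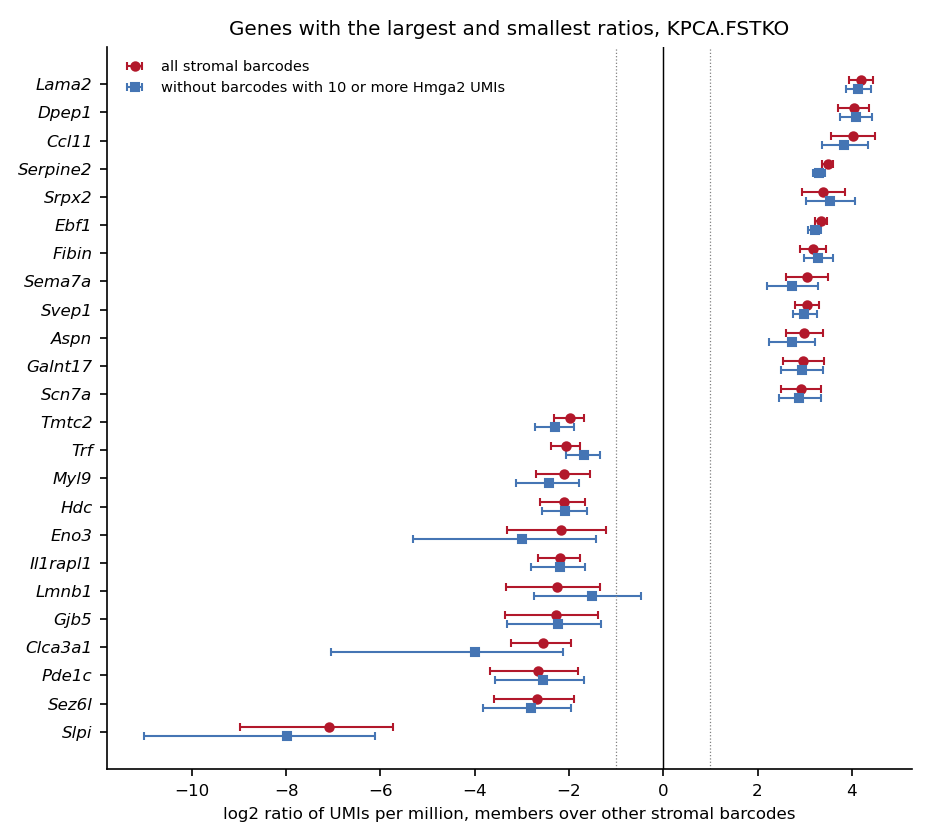
Log2 ratio of CPM in members over the other stromal barcodes of KPCA.FSTKO (horizontal), for the 24 named genes that were furthest from equal, 12 each way, with conditional binomial 95% intervals. Circles use all stromal barcodes and squares those with under 10 Hmga2 UMIs. Dotted lines mark 2-fold. Lama2 is at the top at 4.20 and Slpi at the bottom at -7.10, and circles and squares lie on the same side of 0 for every gene.

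Gene lists were counted in the same way and read against the 2.6% of all genes that were higher and the 3.71% that were lower. Among the general fibroblast markers 6 of 14 were higher and 0 lower, with a median log2 ratio of 0.84. Against the contractile barcodes alone 1 of these 14 was higher and 0 lower, with a median of 0.14. Lum, a collagen-binding proteoglycan, was at 1.84, the surface marker Thy1 at 1.66 and the gelatinase Mmp2 at 1.59, while Pdgfra was at 0.28, Vim at 0.09 and Fbln2 at -0.11. Of the adventitial fibroblast markers 4 of 10 were higher and 0 lower. Clec3b led them at 3.70 but rested on 9 members, Pi16 was at 2.18 and rested on 13, and Col15a1 was at 1.59 and found in 75.8% of members. In the adipocyte lineage list 2 of 6 were higher, Lpl at 2.59 and the nuclear receptor Pparg at 1.12, which came to -0.026 after thinning to 2000 UMIs, and the adhesion gene Icam1 was lower at -1.19. Icam1 was past 2-fold in only 3 of 10 other settings, which ran from -1.22 to -0.15. Adipoq and Plin1, the genes of mature fat cells, were not among the 6 tested.

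Genes of the fibrillar matrix were higher or within 2-fold. Of 10 collagens outside the gate 4 were higher and 0 lower (median 0.83), among them Col8a1 at 1.89 (323 against 87.3 CPM), Col5a3 at 1.64 and Col5a2 at 1.20, with Col11a1 at -0.25. Of 6 small proteoglycans 3 were higher, Aspn at 2.99, Lum at 1.84 and Ogn at 1.20. In the matricellular list 3 of 15 were higher and 0 lower: the thrombospondin Thbs2 at 1.80 and tenascin C (Tnc) at 1.65, both glycoproteins of remodelled matrix, and Spon1 at 1.36, while Tgfbi was at -0.52. Of 20 elastic fibre genes 6 were higher and 0 lower, led by the microfibril genes Mfap5 at 1.94, Mfap4 at 1.54 and Fbn1 at 1.37. Of 15 genes that fold or crosslink collagen, 2 were higher, the lysyl oxidases Loxl1 at 1.23 and Loxl3 at 1.07, and 0 lower, with Pcolce at -0.45.

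Basement membrane genes went both ways, with 5 of 17 higher and 3 lower. The laminin chain Lama2 at 4.20 and the type IV collagens Col4a1 at 1.66 and Col4a2 at 1.64 were higher, whereas the laminin chain Lama5 at -1.77 and the type IV collagens Col4a6 at -1.38 and Col4a5 were lower. Lama5 stood at 22.8 CPM in members, 115 in keratin-positive barcodes and 104 in the stromal barcodes low in Postn and Sparcl1. Of 22 proteases and inhibitors 6 were higher and 1 lower. Serpine2 at 3.49, Mmp2 at 1.59 and Mmp11 at 1.39 led them, and Mmp3, stromelysin, was lower at -2.13.

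Among 20 transcription factors of fibroblasts, only Ebf1 at 3.34 and the Notch target Heyl at 2.60 were higher and Osr1 at -1.74 was lower, with a median of 0.14 over the list. Prrx1, a general mesenchymal factor, was at 0.80. Of 16 WNT and Notch genes 3 were higher, Heyl and the WNT antagonists Dkk2 and Sfrp1, each of the latter at 1.20, and 0 lower. In the PDGF, FGF, EGF and IGF list 2 of 21 were higher, Igf1 at 1.38 (463 against 178 CPM) and Igfbp7 at 1.12, and Igfbp5 was lower at -1.15. Pdgfa, a platelet-derived growth factor chain, was at 0.15, with an interval of -0.14 to 0.43. Adhesion receptors had 1 of 17 higher, the collagen-binding integrin chain Itga1 at 1.25. In that list 2 were lower, Cdh2 (N-cadherin) at -1.50 and Icam1 at -1.19, the latter with the limit given above.

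Inflammatory fibroblast genes did not move as a group, with 3 of 21 higher, 2 lower and a median of -0.17. Ccl11 at 4.02, the hyaluronan synthase Has2 at 1.43 and the chemokine Cxcl14 at 1.09 were higher, and the acute-phase gene Saa3 at -1.80 and the chemokine Cxcl5 at -1.40 lower. Cxcl2, a neutrophil chemokine, was at -0.83 with all barcodes and at -3.98 without the Hmga2-high ones, since 85 of its 90 UMIs in members came from that set and 46 of them from 1 barcode. Without the Hmga2-high barcodes 1 of 21 was higher and 7 were lower. Antigen presentation genes were lower in 4 of 7 (median -1.27) and higher in 0, with the class II genes Cd74 at -1.76, H2-Eb1 at -1.55 and H2-Ab1 at -1.35.

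Lists of other lineages were lower or within 2-fold, with few exceptions. Of 10 mesothelial genes outside the gate 4 were lower and 0 higher, with Cdh3 at -1.67, mesothelin (Msln) at -1.25, Efna5 at -1.23 and Aldh1a2 at 0.45. Of 10 smooth muscle genes outside the gate 2 were lower, Myl9 at -2.10 and Actg2 at -1.97, but against the barcodes low in Postn and Sparcl1 alone Actg2 was at 2.83. Of 10 pericyte markers 2 were higher, Mcam at 1.86 and Abcc9 at 1.42, and 1 lower, Steap4 at -1.18, while the list summed to 585 CPM in members, 500 in the other stromal barcodes and 1038 in the contractile ones. In members 1 barcode held 45.6% of the Mcam UMIs, and the ratio turned to -1.15 after thinning. Of 4 endothelial markers tested 1 was higher, Eng at 1.75, which was found in 27.3% of members. Cancer cell genes were lower in 4 of 7, among them Cldn3 at -1.57, Lbp at -1.31 and Wfdc2 at -1.22. Without the Hmga2-high barcodes 1 of 6 was lower, with Lbp at -0.62 and Wfdc2 at -0.76. Their list summed to 351 CPM in members, and to 556 in the Hmga2-high ones, 235 in the Ebf1-positive ones and 1208 in keratin-positive barcodes.

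Proliferation genes were lower in 8 of 12 and higher in 0 (median -1.59), with the mitotic genes Cenpf at -2.58, Ccnb1 at -2.26 and Birc5 at -2.24, on 14, 6 and 13 UMIs in members. Of 14 immediate early and heat shock genes 1 was lower, Hspb1 at -1.15, and of 12 hypoxia genes 1 was lower, Egln3, an oxygen-sensing hydroxylase, at -1.18. Macrophage markers were lower in 2 of 5, Cd14 at -1.77 and the complement gene C1qa at -1.05, and summed to 92.7 CPM in members, against 15184 in the Ptprc-positive barcodes. Acinar genes were lower in 2 of 4, Try5 at -1.65 and Ctrb1 at -1.19, and Schwann cell markers in 0 of 2, with Cryab at -0.75. The lower values of 4 of 4 erythroid genes (Hbb-bs -4.43) and of 2 of 2 neutrophil markers (S100a9 -5.08) rested on single barcodes outside the members, since 1 of them held 89.3% of the Hbb-bs and 1 held 95.8% of the S100a9 UMIs of the other stromal barcodes.

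Without the Hmga2-high barcodes some further counts moved. Proteases and inhibitors then had 3 of 21 higher and 2 lower, transcription factors 4 of 18 higher and 1 lower, WNT and Notch genes 5 of 15 higher and 0 lower, and hypoxia genes 0 of 12 higher and 3 lower. Of the genes named above, C1qa, Col4a5, Loxl3, Cxcl5, Cxcl14, Has2 and Ccnb1 came within 2-fold, between -0.96 for C1qa and 0.97 for Has2.

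**Figure D4:**
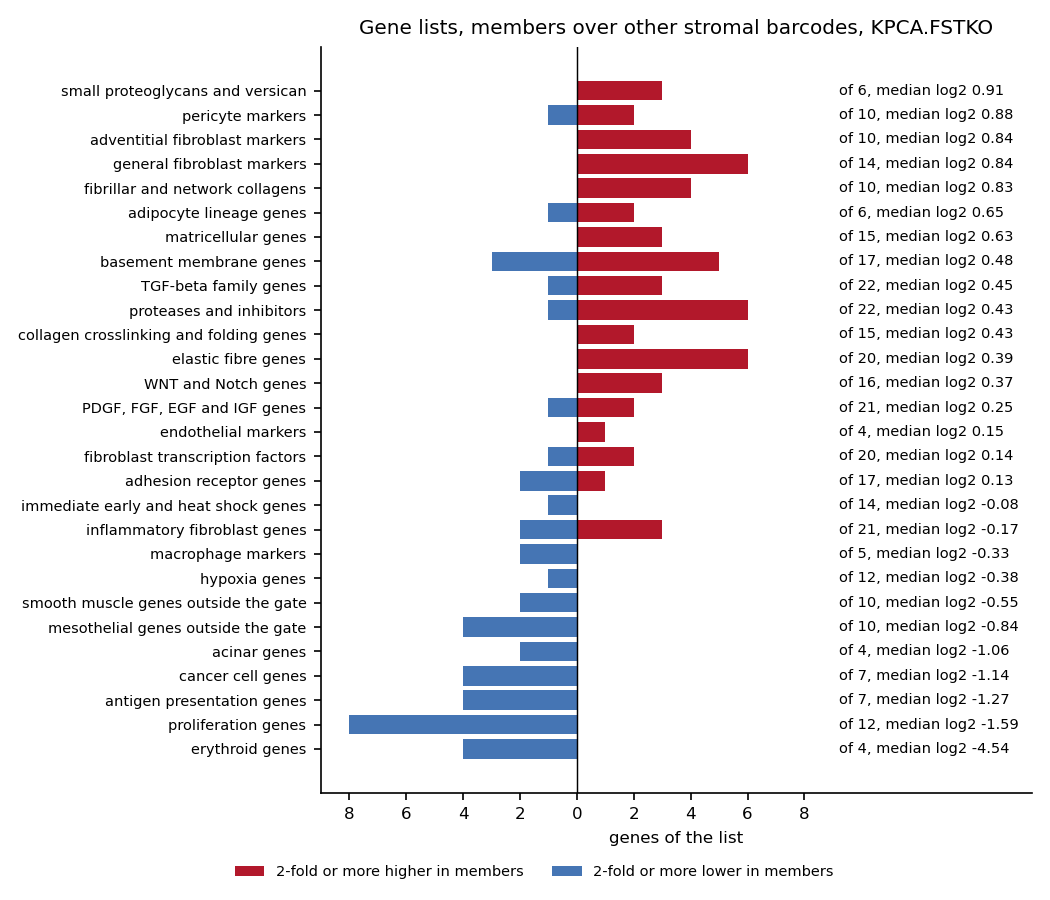
Number of genes in each list with at least 4 genes tested that were 2-fold or more higher (right, red) or lower (left, blue) in members than in other stromal barcodes of KPCA.FSTKO, with the number tested and the median log2 ratio printed beside each bar. Lists are ordered by the median, from small proteoglycans and versican (0.91) at the top to erythroid genes (-4.54) at the bottom.

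Between the members and the other stromal barcodes Fst, Fstl3, Inhba, Tgfb1 and Acvr2a were within 2-fold, but not under every setting. Fst was at -0.63 (51.3 against 79.3 CPM), and Fstl3 at 0.61 (70.4 against 46.1 CPM). Inhba was at 0.93 (interval 0.77 to 1.09, 236 against 123 CPM) and Tgfb1 at 0.81 (123 against 69.9 CPM). Inhba was past 2-fold in 5 of 10 other settings, which ran from 0.51 without the Hmga2-high barcodes to 1.62 without the barcodes that held endothelial or pericyte UMIs. Fst turned to 0.48 against the barcodes low in Postn and Sparcl1 alone and to 0.20 without the endothelial or pericyte ones. Of the activin type II receptors, Acvr2a was at 0.61, at -0.65 after thinning and at 1.34 without the Hmga2-high barcodes, and Acvr2b had 4 UMIs in the members and 15 in the others. In the TGF-beta family list 3 of 22 were higher and 1 lower. Inhbb, the other activin chain, was at 2.27 with 80.8 against 16.8 CPM, the receptor Tgfbr2 at 1.02 and the BMP antagonist Grem1 at 1.00, whereas Gdf15 was at -2.09 and Smad3 at -0.51. Without the Hmga2-high barcodes 5 of 20 were higher and 0 lower, with Grem1 at 0.41 and Gdf15 at -0.98.

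These genes did not have the same level in all members. Inhba stood at 331 CPM in Hmga2-high, 101 in Ebf1-positive and 274 in the remaining members. Inhbb ran the other way, at 14.8, 187 and 36.9 CPM. Fstl3 was highest in the remaining members, at 132 CPM against 39.0 and 58.0, and Fst stood at 87.4 CPM there against 18.8 and 59.4. The shares of members with a UMI were 32.3% for Fst, 50.5% for Fstl3 and 57.6% for Inhba, against 2.00%, 5.03% and 15.9% of Ptprc-positive barcodes. In the keratin-positive barcodes Fst stood at 5.7 CPM. Reads of the 3' end can lie outside the deleted part, so that this is no check of the knockout.

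The contractile barcodes were the nearest of the other groups. Of 5502 genes with 100 UMIs, 188 were higher in members than in the 95 contractile barcodes (3.42%) and 80 lower (1.45%). The flavin monooxygenase gene Fmo2 at 3.74, Kcnip1 at 3.63, Dpep1 at 3.09, Edil3 at 2.94, the transporter Abca8a at 2.84 and Lama2 at 2.83 were highest. Ctla2a was at 2.69, but 1 member held 52.4% of its UMIs. Lower in members were the contractile genes Actg2 at -4.36, Myl9 at -4.01 and Tpm2 at -2.11, as well as Hdc at -2.33 and Fst at -2.25 (51.3 against 244 CPM). Collagens differed little, with 1 of 10 higher, 0 lower and a median of 0.09. Of the elastic fibre genes 2 of 19 were higher and 0 lower. General fibroblast markers and basement membrane genes each had 1 of 14 higher and 0 lower, with medians of 0.14 and 0.20. Of 20 proteases and inhibitors 1 was higher and 3 were lower, with a median of -0.23. The contractile barcodes thus shared most of the higher values of these lists.

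From the barcodes of the mesothelial gate the members were further away. Of 5001 genes 433 were higher (8.66%) and 279 lower (5.58%). Dkk2 at 7.88 (interval 5.39 to 13.2, 367 UMIs against 1), Fibin at 6.61 (interval 4.74 to 9.66), Aspn at 6.50 (interval 4.00 to 11.8) and Spp1 at 5.54 were among the highest, and Slpi at -9.01, Serpinb2 at -7.16, the B cell chemokine Cxcl13 at -6.04 and Cd74 at -3.60 among the lowest. The median Spp1 count, as given above, was far higher in the Hmga2-high members than in the other sets. Antigen presentation genes were lower in 7 of 7 and inflammatory fibroblast genes in 10 of 17. Inhba was higher in members (2.90, 236 against 31.5 CPM), as were Tgfb1 at 1.85, Pdgfa at 1.89 and Fstl3 at 1.32, while Fst was at 0.11.

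Likeness was then read from genes outside the rule. For each of 621 stromal barcodes with at least 2000 UMIs (81 were left out), the 10 nearest others were found by rank correlation of thinned counts over 9487 genes. Of the neighbours of members, 29.2% were members, which make up 15.6% of those barcodes. A further 27.1% were contractile barcodes (14.3% of all), 40.0% were low in Postn and Sparcl1 (59.7%) and 2.58% came from the mesothelial gate (9.18%). In the other direction, contractile barcodes took 16.7% of their neighbours from members, close to the 15.6% of all, and 38.2% from their own group. Most neighbours of a member were not members.

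The 3 sets differed here as well. Hmga2-high members took 19.2% of their neighbours from their own set, which is 4.19% of all, and 13.5% from the contractile barcodes, below their 14.3% of all. Ebf1-positive members took 18.6% from their own set (7.09% of all) and 29.3% from the contractile barcodes. The remaining members took 36.7% from the contractile barcodes and 17.0% from members of any set. Without the Hmga2-high barcodes 30.3% of the neighbours of members were members, which then made up 16.8% of the barcodes.

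Hmga2-high and Ebf1-positive members were set side by side as a description, leaving out the genes that drew them. Of 2579 genes 199 were higher in Hmga2-high members (7.72%) and 303 lower (11.7%). The teneurin Tenm4 was found in 76.9% of Hmga2-high and 2.17% of Ebf1-positive members (115 UMIs against 1, log2 ratio 6.70, interval 4.19 to 12.02), and the kinase gene Pak3 in 96.2% and 10.9% (log2 ratio 5.06). Adgrl3, an adhesion receptor gene, was found in all 26 Hmga2-high members and in 21.7% of Ebf1-positive ones (3.97). Hs3st5 was at 5.49 (interval 3.92 to 7.78), Nkain2 at 4.58, Kirrel3 at 4.54 and Alcam at 3.95. Prg4, the lubricating proteoglycan lubricin, had 310 UMIs against 0, at least 93.5-fold higher when the 0 is set to 3 UMIs over the group, but it was found in 8 of the 26 and 1 barcode held 56.1% of its UMIs.

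The genes lower in Hmga2-high members included Dpep1 and Svep1, which were among the highest in the members as a whole. Dpep1 had 1 UMI against 288 (log2 ratio -8.31, interval -13.6 to -5.82), and Unc5c was at -6.82 (interval -12.1 to -4.31) with 1 UMI against 102. Nhs was at -4.90, Svep1 at -4.84 with 11 UMIs against 285, the WNT modulator Sfrp2 at -4.80, Adamtsl1 at -4.79, the secreted peroxidase Gpx3 at -4.76 and Ptprm at -4.74. Of 14 general fibroblast markers 10 were lower and 0 higher, of 9 collagens 7 were lower, and of 17 elastic fibre genes 11 were lower and 2 higher. Of 12 basement membrane genes 9 were lower and 1 higher.

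Ebf1-positive and remaining members, which both had few Hmga2 UMIs, also differed. Of 2022 genes 160 were higher in Ebf1-positive members (7.91%) and 78 lower (3.86%). The transporter Abca8a was at 4.93 (199 UMIs against 5), Cyp7b1 at 4.83, Kcnq3 at 3.61, Unc5c at 3.48 and Scn7a at 2.91. The lipid-binding gene Fabp5 at -3.39, Celf4 at -3.29, the heparan sulfate sulfotransferase Hs3st1 at -2.89, the lipase Mgll at -2.68 and clusterin (Clu) at -2.33 were lower. Every hypoxia gene with enough counts, 8 of 8, was lower in Ebf1-positive members, among them Egln3 at -2.38 and the angiogenic factor Vegfa at -1.65 (120 against 377 CPM), the latter named after its values were seen. The list summed to 1630 CPM in Ebf1-positive, 4301 in the remaining and 3307 in Hmga2-high members.

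The balance of the genes that chose the members gave a further split. At least 75% of the Postn and Sparcl1 UMIs came from Postn in 51 members, called Postn-led, and from Sparcl1 in 14, called Sparcl1-led, and 34 were mixed. Of the Hmga2-high members 23 were Postn-led, 3 mixed and 0 Sparcl1-led. Of the Ebf1-positive members 27 were mixed, 12 Postn-led and 7 Sparcl1-led, and of the remaining ones 16 were Postn-led, 7 Sparcl1-led and 4 mixed. Of 2286 genes 216 were higher in Postn-led members (9.45%) and 133 lower (5.82%).

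Adgrl3 (log2 ratio 6.22, 409 UMIs against 1) and the transcription factor Sox9 (5.28, 213 UMIs against 1) headed the genes higher in Postn-led members, followed by the guidance receptor Robo1 at 4.87, the phosphate transporter Ank at 4.81, Prune2 at 4.67, Adgrl2 at 4.58, Nr2f1 at 4.56 and Pla2g7 at 4.46. Of these 8 ratios 7 rest on 1 UMI in the 14 Sparcl1-led members and that of Ank on 3, so that their intervals are wide. That of Sox9 ran from 2.79 to 10.6 and that of Pla2g7 from 1.95 to 9.77. Sox9 is also on the list of cancer cell genes. The Hmga2-high members, 23 of them Postn-led and 0 Sparcl1-led, held 466 of the 520 Adgrl3 UMIs of all members. Robo1 was spread otherwise, with 112 of its 257 UMIs in Ebf1-positive members. How far these 8 ratios rest on the Hmga2-high members was not tested. Dpep1 was lower at -6.32, with 13 UMIs in 5 Postn-led members and 190 in 11 Sparcl1-led ones, of which 1 barcode held 50.5%. The complement gene C3 at -3.46 and the actin-severing Gsn at -3.04 were found in all 14 Sparcl1-led members. Saa3 at -4.64, Stmn2 at -4.16 and Cxcl14 at -3.74 were found in 5, 4 and 6 of them, Svep1 was at -3.62 and Gpx3 at -3.60. Without the Hmga2-high barcodes 45 of 1027 genes were higher and 42 lower.

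The same rule, applied to the KPCA.FSTKO_hFSTL3 library, for which it was not made, gave 12 members among 110 stromal barcodes, 10.9% (interval 5.77 to 18.3), out of 4041 past the filters and 4244 deposited. The intervals of the 2 shares of stromal barcodes overlap. Of these 12, 8 were Ebf1-positive, 2 Hmga2-high and 2 remaining. Free RNA was more frequent in this library, where Postn had a UMI in 49.5% of Ptprc-positive barcodes (median depth 22285 UMIs) against 83.3% of members (13868), and in 8.11% and 54.5% after thinning. Library and genotype cannot be told apart in what follows.

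Within this library the contrasts of the markers outside the rule went the same way as in KPCA.FSTKO. Lama2 was higher in members than in the other 98 stromal barcodes at 3.34 (interval 2.87 to 3.83, 398 against 39.2 CPM), Ebf1 at 2.06 (1156 against 277 CPM) and Serpine2 at 1.33 (1026 against 408 CPM). Svep1 was at 2.98, Ccl11 at 3.05 and Dpep1 at 1.76. The 24 genes named above had been picked for their ratios in KPCA.FSTKO, and the same gates chose the members of both libraries. The share of same signs over all genes is not given. Of 31 genes set side by side, those 24 and the 7 of the study, 26 had the same sign in both libraries. Of these, Acvr2b, Eno3, Lmnb1, Sema7a, Srpx2, Pdgfa and Fst had intervals that held 0 in KPCA.FSTKO_hFSTL3, and Clca3a1, Gjb5 and Sez6l had 0 UMIs in its members. Aspn, Il1rapl1 and Inhba had opposite signs with intervals on opposite sides of 0. Fstl3 and Tgfb1 also had opposite signs, with intervals that held 0 in KPCA.FSTKO_hFSTL3 (-2.28 to 0.18 and -1.17 to 0.37).

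**Figure D5:**
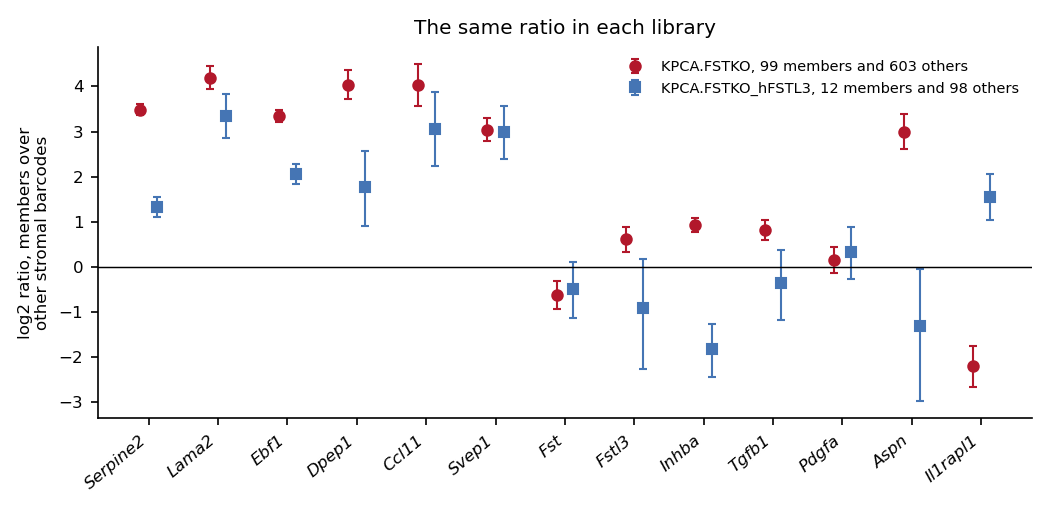
Log2 ratio of members over the other stromal barcodes (vertical) for 13 genes in each library, with conditional binomial 95% intervals. Circles are KPCA.FSTKO (99 members) and squares KPCA.FSTKO_hFSTL3 (12 members). The first 6 genes are above 0 in both, and Inhba, Aspn and Il1rapl1 lie on opposite sides of 0.

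Between the members of the libraries, 139 of 3790 genes were higher in KPCA.FSTKO_hFSTL3 (3.67%) and 247 lower (6.52%). Ebf1 was at 0.62, Lama2 at 0.41 and Serpine2 at 0.26, all within 2-fold. Spon2 was highest at 3.09, but 1 of the 12 barcodes held 98.2% of its UMIs, and Adgrl3 at 2.52 rested on 3 barcodes. Pappa at 2.33, Plcb1 at 2.19, Dleu2 at 2.11, the receptor Notch2 at 2.10, Syne2 at 2.09 and Thsd7a at 2.06 followed. Ctla2a was lowest at -7.23 (interval -12.5 to -4.75) with 1 UMI against 1217, and Saa3 at -6.64 (interval -11.9 to -4.16) had 1 UMI against 806. In KPCA.FSTKO, 1 member held most of the Ctla2a UMIs, as given above. Saa3 was found in 20.2% of the KPCA.FSTKO members, with 651 of the 806 UMIs in Sparcl1-led ones. Rbfox1 at -5.03, Krt19 at -4.40, Pde7b at -4.40, Mgll at -4.34, the immediate early gene Ier3 at -4.06 and Prrx2 at -4.00 were next, all but Ier3 on 1 or 2 UMIs in the 12 members.

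Of the genes of the study, Fst was at 1.09 in members of KPCA.FSTKO_hFSTL3 over those of KPCA.FSTKO (109 against 51.3 CPM), on 26 UMIs of which 76.9% came from 1 barcode. Pdgfa was at 1.03 (134 against 65.8 CPM), Fstl3 at -1.26 with 7 UMIs, Inhba at -1.06 with 27 UMIs and Tgfb1 at -0.79. Acinar genes summed to 963 CPM in these members, where all 12 held at least 3 such UMIs, against 64.7 CPM in KPCA.FSTKO members. The median mitochondrial share was 10.7% over the barcodes past the filters in this library and 3.54% in KPCA.FSTKO, and 3.56% and 3.07% in the members. The part that these differences have in the ratios was not tested.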

How the data were processed

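The authors dissociated tumors, made 10x Genomics 3' libraries and ran Cell Ranger against mm10 (version 3.1.0 in the submitters' processing notes, 7.2.0 in the matrix header). They deposited raw UMI counts per gene and barcode, not normalized. The mitochondrial and gene-number filters of the study had not been applied to these, but no deposited barcode had under 500 UMIs in either library. Multimapping reads are not counted by default, so close paralogs are uncertain. The number of deposited barcodes is the one the study gives as its final cell count, and its stated filters (mitochondrial UMIs under 20%, over 200 and under 8000 genes) were applied here and left fewer. Counts were summed over barcodes of a group and given as CPM, with Python 3.11.15, numpy 2.4.6, scipy 1.17.1 and pandas 2.3.3, and edgeR 4.0.16 in R 4.3.3 for an alternative scaling (TMM). Ratios needed 100 UMIs over both groups, a group at 0 was set to 3 UMIs, and genes of the rule were left out of counts. The ratio calculation was tested on simulated Poisson counts of the summed groups. Such counts hold no variation between barcodes, so that variation was not covered. The members and the 32 gene lists were chosen with earlier results of these data known. Of 465 listed symbols 464 were in the table. Named genes are those of the rule and the markers, the 3 highest and 3 lowest of each list, 7 genes of the study, and the 12 highest and 12 lowest of the main comparison (8 and 8 in others) found in at least 20% of barcodes, without mt-, Gm and Rik genes. Genes outside this are said to be chosen after values were seen. Coordinates come from an annotation of GRCm38.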

Additional observations from a re-analysis of the deposited data

Results flagged for a closer look

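For 3 genes the ratio of members over the other stromal barcodes had opposite signs in the libraries, with intervals on opposite sides of 0. The difference between libraries was not tested, since each genotype is 1 library, and the second library holds 12 members. Aspn was at 2.99 in KPCA.FSTKO and at -1.32 in KPCA.FSTKO_hFSTL3 (interval -2.99 to -0.04), on 5 UMIs in members and 83 in the others. Il1rapl1 was at -2.20 and at 1.55, and 1 member of KPCA.FSTKO_hFSTL3 held 95.7% of its 47 UMIs there. Inhba was at 0.93 and at -1.83, with 113 CPM in members and 401 in the other stromal barcodes of KPCA.FSTKO_hFSTL3, where 4 of 12 members held it, 33.3%, against 65.8% of the Ptprc-positive barcodes of that library. With each barcode thinned to 2000 UMIs these shares were 0 of 11 members, with an interval up to 28.5%, and 10.5%.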

How the results depend on the processing

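Counts of genes moved most, in part with the number tested. At least 50 UMIs instead of 100 gave 389 higher and 555 lower of 11077 genes in members against the other stromal barcodes, 486 and 304 of 4359 between Postn-led and Sparcl1-led members, and 346 and 541 of 6286 between libraries. At least 200 gave 161 and 189 of 7387, 88 and 62 of 1048, and 48 and 126 of 1875. A ratio of 3 gave 108 and 132, 114 and 62, and 29 and 102. Thinning each barcode to 2000 UMIs gave 69 higher and 92 lower in members, of 2233 tested. Equal weight for each barcode gave 537 lower in members and 453 lower in KPCA.FSTKO_hFSTL3. A split at 50% gave 127 higher and 155 lower in Postn-led members. TMM scaling gave 84 higher between libraries and moved that median to -0.15. The share of calls that were higher was 61.9% between Postn-led and Sparcl1-led members, 45.0% with the split at 50% and 51.7% without Hmga2-high barcodes, and 36.0% between libraries, 20.2% with TMM scaling, 22.9% without Hmga2-high barcodes and 22.1% at a ratio of 3. Without Hmga2-high barcodes, chosen after seeing the data, 45 were higher and 42 lower of 1027 in Postn-led members, and 56 higher of 2319 between libraries. Leaving out barcodes with 3 or more UMIs of endothelial or pericyte markers, lists that hold genes fibroblasts also express, left 41 members and 73 genes lower of 875 in Postn-led members. A minimum of 10 Postn and Sparcl1 UMIs gave 10.5% of stromal barcodes in KPCA.FSTKO and 5.45% in KPCA.FSTKO_hFSTL3. Of 98 named genes at least 2-fold either way, 89 kept their sign in all 10 settings and 61 stayed past 2-fold, and of all 185 named genes 134 kept their sign. Of 29 lists 22 kept the sign of their median. Among lists and genes past 2-fold, signs turned for the acinar median (0.97 without endothelial or pericyte barcodes, 0.14 against low barcodes only) and for the genes that follow. Without endothelial or pericyte barcodes Actg2 was at 0.38, Cldn3 at 0.0019, Ctrb1 at 0.92, Myl9 at 0.25, Steap4 at 0.087 and Try5 at 0.32. Against low barcodes only Actg2 was at 2.83, Ctrb1 at 0.61 and Try5 at 0.21, and after thinning Ccnb1 was at 0.43, Mcam at -1.15 and Pparg at -0.026. The other lists whose median changed sign were WNT and Notch, endothelial, fibroblast transcription factors, immediate early, inflammatory and smooth muscle, whose reported medians were all within 2-fold. The cause was not tested. No paired analysis was possible because each genotype is 1 library.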
